A study of Mus musculus with 8 samples.

Results

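The 10 genes described here are the 3 PPAR genes and 7 genes widely used as PPAR targets, most of them of fatty acid handling. The members are Ppara, Ppard, Pparg, Vnn1, Angptl4, Plin2, Fabp4, Cd36, Pdk4 and Cpt1a. They were matched by gene symbol, and all 10 were measured, each by 1 probe set, among 22180 genes. The list was drawn up with the difference between the groups already known, so the members' own differences are given as a description and without a test. Total RNA was profiled on 8 microarrays, from cultured primary articular chondrocytes, which are cartilage cells, isolated from the knee cartilage of wild-type ICR mice aged 5 days and grown as a monolayer. The cells had been infected for 24 h with an adenovirus expressing the zinc transporter ZIP8 (Ad-Zip8, 4 arrays) or with a null control adenovirus (Ad-null, 4 arrays). Both groups therefore carried an adenovirus, and no uninfected cells were analysed here. The arrays are labelled as biological replicates, and their source animals are not stated, so p-values measure only the spread between these samples.

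PPARs are nuclear receptors that bind fatty acids and their derivatives and that pair with retinoid X receptors on DNA. PPAR alpha is known for driving fatty acid oxidation in liver, PPAR gamma for driving adipocyte formation, and PPAR delta is expressed in most tissues and promotes fatty acid use in muscle. Their target genes cover the release and uptake of fatty acids, their storage in lipid droplets and their burning in mitochondria. Several of these targets also respond to other signals, such as low oxygen in the case of Angptl4 and Plin2.

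Values are RMA expression values on the log2 scale, so a difference of 1 is a 2-fold change. The transgene was seen in the arrays: Slc39a8, the gene of ZIP8, had values of 10.90 to 11.24 with Ad-Zip8 against 6.12 to 6.27 with Ad-null. Array medians lay between 5.04 and 5.11, and differences near or below this level are compressed by background. Pairs of arrays from one group had correlations of 0.991 to 0.993, and pairs from different groups 0.979 to 0.986. Of the 22180 genes, 1216 rose (5.48% of those tested) and 1136 fell (5.12%) at a limma adjusted p under 0.05. The number that fell was 708 without Ad-Zip8 replicate 1 and 721 without Ad-null replicate 1. The RNA came from whole cultures, so a change in the number of cells of a type and a change in RNA per cell cannot be told apart.

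The 3 receptor genes differed by at most 0.41 between the groups, while the secreted, surface and lipid-binding targets Vnn1, Fabp4 and Angptl4 differed most. Ppara and Pparg had group means of 5.56 to 5.84, not far above the array medians, so background may compress their differences. Vnn1 was 14.6-fold higher with Ad-Zip8, Fabp4 6.87-fold, Angptl4 5.67-fold and Plin2 1.70-fold. Pdk4 and Cpt1a were higher by 0.54 and 0.32 on the log2 scale, Ppard by 0.41, and Ppara and Cd36 lay within 0.07 of no difference. The median of the 10 differences was 0.48, beside -0.02 over all 22180 genes. The fit across all genes called 5 of the 10 higher (Vnn1, Angptl4, Fabp4, Plin2 and Ppard) and 0 lower, beside 5.48% called higher and 5.12% called lower over all genes. The count of 5 was 3 without Ad-null replicate 3 or 4. The groups did not overlap for 6 members, all higher, beside 7.89% of all genes that were higher without overlap and 9.74% that were lower without overlap. Because the list was made with this contrast in view, nothing is read from these counts.

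**Figure D1:**
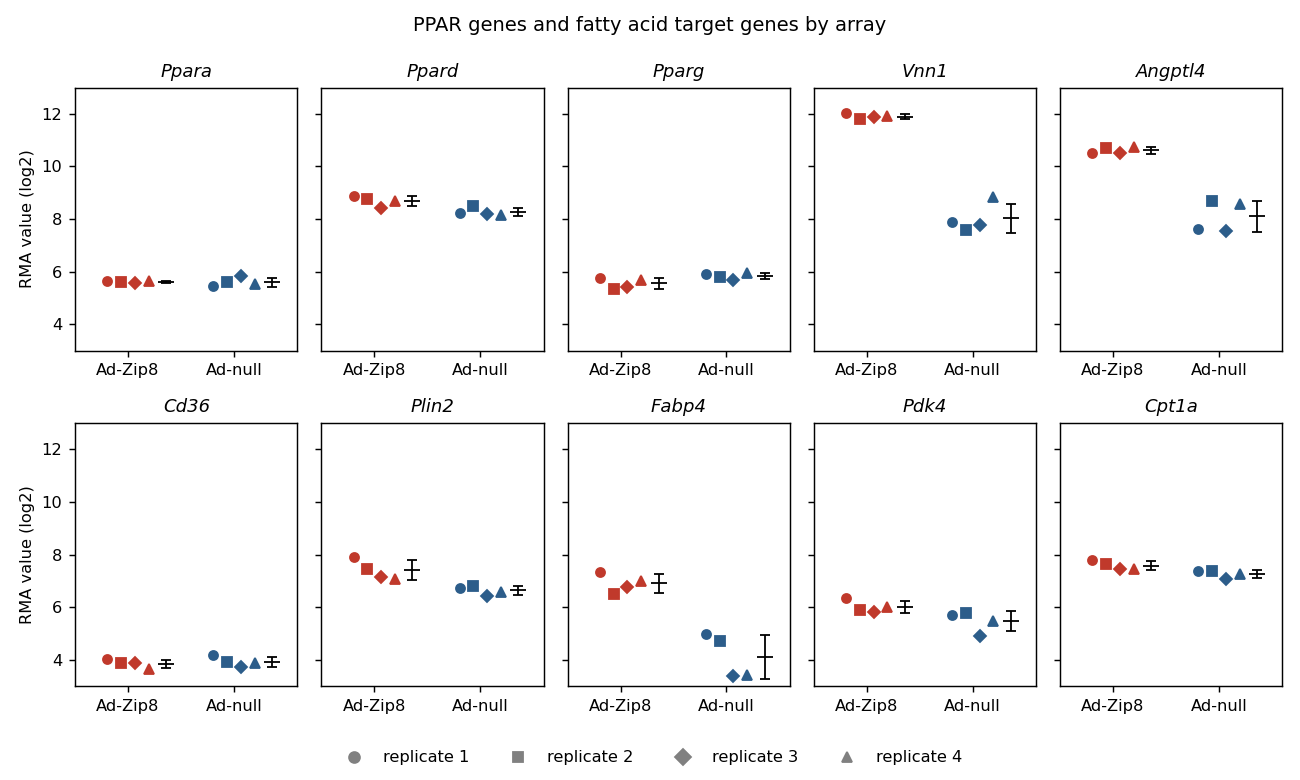
RMA values (log2) of the 10 genes on each array, with the 4 Ad-Zip8 arrays left of the 4 Ad-null arrays, a marker shape for each replicate number, and the group mean with its SD as a black bar. Vnn1, Angptl4, Plin2, Fabp4, Pdk4 and Cpt1a have no overlap between the groups, whereas the values of Ppara, Ppard, Pparg and Cd36 overlap.

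Among the receptors, Ppara had values of 5.66, 5.62, 5.58 and 5.64 with Ad-Zip8 and 5.44, 5.60, 5.85 and 5.54 with Ad-null, in the order of replicates 1 to 4. All 4 Ad-Zip8 values lay inside the Ad-null range. The group means were 5.62 ± 0.03 and 5.61 ± 0.17 (SD, n = 4 each), and the difference was 0.02 (SE 0.09). Its sign turned without Ad-null replicate 1 (-0.04) or 4, and with a further quantile normalization (-0.014).

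Ppard had values of 8.87, 8.75, 8.42 and 8.69 with Ad-Zip8 and 8.24, 8.51, 8.18 and 8.17 with Ad-null. The groups overlapped through Ad-Zip8 replicate 3 and Ad-null replicate 2. Ad-Zip8 averaged 8.68 ± 0.19 and Ad-null 8.28 ± 0.16 (SD, n = 4 each), a difference of 0.41 (SE 0.11). Each Ad-Zip8 array exceeded the Ad-null array of the same replicate number, by 0.24 to 0.62. What the replicate numbers mark is not stated, so here and below pairs of equal number rest on a weak inference.

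Pparg had values of 5.78, 5.36, 5.43 and 5.68 with Ad-Zip8 and 5.90, 5.79, 5.69 and 5.97 with Ad-null. It was the 1 receptor gene with lower values under Ad-Zip8, and Ad-Zip8 replicate 1 lay inside the Ad-null range. The difference was -0.27 (SE 0.11), and it was negative in all 4 pairs of equal replicate number, at -0.43 to -0.12.

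Vnn1 encodes vanin 1, a membrane-anchored pantetheinase that releases pantothenate and cysteamine. Its values were 12.03, 11.79, 11.87 and 11.90 with Ad-Zip8 and 7.91, 7.59, 7.78 and 8.84 with Ad-null. The lowest Ad-Zip8 array stood 2.95 above the highest Ad-null array. Ad-Zip8 averaged 11.90 ± 0.10 and Ad-null 8.03 ± 0.55 (SD, n = 4 each), a difference of 3.87 (SE 0.23) that ranked 13 among all 22180 genes. The Ad-Zip8 arrays spanned 0.24 and the Ad-null arrays 1.25, with Ad-null replicate 4 the high one. Leaving that array out gave a difference of 4.14.

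Angptl4 encodes a secreted inhibitor of lipoprotein lipase. It had values of 10.50, 10.72, 10.50 and 10.72 with Ad-Zip8 and 7.64, 8.67, 7.55 and 8.57 with Ad-null. The Ad-null values formed a high pair (replicates 2 and 4) and a low pair (replicates 1 and 3), and the Ad-Zip8 values of replicates 2 and 4 were also the higher ones. Ad-Zip8 averaged 10.61 ± 0.13 and Ad-null 8.11 ± 0.60 (SD, n = 4 each). The difference of 2.50 (SE 0.25) ranked 34 of all genes and lay between 2.04 and 2.96 in the 4 pairs.

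Cd36 encodes a membrane receptor that takes up long-chain fatty acids. Its values were 4.03, 3.88, 3.87 and 3.65 with Ad-Zip8 and 4.17, 3.91, 3.74 and 3.86 with Ad-null, all below the array medians. The groups overlapped, and the difference was -0.07 (SE 0.11), with its sign turned in the fits that left out Ad-Zip8 replicate 4 (0.0016) or Ad-null replicate 1 (0.02). Values this dim lie where background compresses differences.

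Fabp4 encodes a cytosolic fatty acid carrier of adipocytes and macrophages. Its values were 7.33, 6.51, 6.77 and 7.00 with Ad-Zip8 and 4.97, 4.71, 3.39 and 3.41 with Ad-null. No Ad-null array reached the array medians, and every Ad-Zip8 array was above them. Ad-Zip8 averaged 6.90 ± 0.35 and Ad-null 4.12 ± 0.84 (SD, n = 4 each), the widest Ad-null spread of the 10 genes. The difference of 2.78 (SE 0.36) ranked 27 of all genes. It was 1.80 and 2.36 in the pairs of replicates 2 and 1 and 3.38 and 3.59 in those of replicates 3 and 4, and its size is uncertain because the Ad-null values are so low.

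Plin2 encodes a protein that coats lipid droplets. It had values of 7.92, 7.44, 7.14 and 7.09 with Ad-Zip8 and 6.72, 6.79, 6.44 and 6.59 with Ad-null. The groups were 0.29 apart at their nearest arrays. Ad-Zip8 averaged 7.40 ± 0.38 and Ad-null 6.64 ± 0.16 (SD, n = 4 each), a difference of 0.76 (SE 0.17) that was 0.59 without Ad-Zip8 replicate 1.

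Both genes of mitochondrial fuel use had smaller differences than Plin2. Pdk4 encodes a kinase that switches off pyruvate dehydrogenase and so spares glucose. It had values of 6.33, 5.88, 5.83 and 6.02 with Ad-Zip8 and 5.71, 5.77, 4.91 and 5.49 with Ad-null, and the groups were separated by 0.06. The Ad-null array of replicate 3 was the low one, and without it the Pdk4 difference was 0.36, beside 0.54 (SE 0.19) over all arrays.

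Cpt1a encodes the enzyme that commits long-chain fatty acids to entry into mitochondria. Its values were 7.77, 7.66, 7.44 and 7.46 with Ad-Zip8 and 7.37, 7.37, 7.06 and 7.28 with Ad-null. The groups were separated by 0.08, and the difference was 0.32 (SE 0.10). It was positive in all 4 pairs, at 0.18 to 0.41, and so was that of Pdk4, at 0.11 to 0.92.

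**Figure D2:**
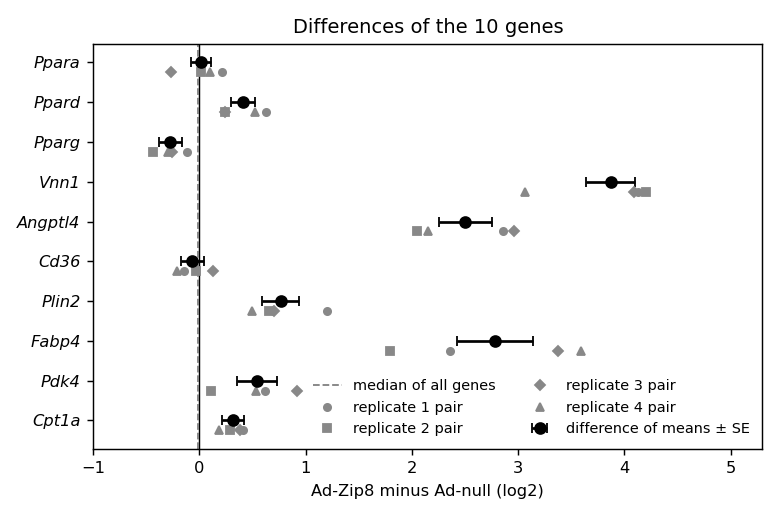
Ad-Zip8 minus Ad-null differences (log2) of the 10 genes: black points are differences of group means with the moderated SE, grey markers are the 4 differences between arrays of equal replicate number, and the dashed line is the median of all genes. Vnn1, Fabp4 and Angptl4 lie at 2.50 or more, and the remaining 7 genes lie between -0.27 and 0.76.

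Within each group, 1 array was at the edge of the range for most members. Ad-Zip8 replicate 1 held the highest Ad-Zip8 value for 9 of the 10 genes, Angptl4 being the exception, and Ad-null replicate 3 held the lowest Ad-null value for 7. Ad-Zip8 replicate 1 was not the highest in Slc39a8, with 11.16 beside 11.24 in replicate 3. Of the Ad-Zip8 arrays it had the lowest summed level of chondrocyte markers (45739, beside 53194 to 54338). Its sums of macrophage markers (491.0, beside 435.6 to 458.8) and of endothelial markers (333.4, beside 299.4 to 322.4) were the highest. The macrophage rank rested on Cd68, with 7.67 beside 7.28 to 7.42, and was not held without that gene. Its adipocyte marker sum was not the highest, at 272.8 beside 311.6 in Ad-Zip8 replicate 2. The part of these marker levels in the members' values was not tested.

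The promoter windows of the members were read for the PPAR binding hexamer AGGTCA on both strands. RefSeq sequences (GRCm38.p6) were matched for 7 of the 10 members, with 9 annotated starts, and the 250 bases before each start were searched. Vnn1, Angptl4 and Fabp4, the members with the largest differences, had no window. The windows also include those of the receptor genes, so targets with and without a higher value were not compared. The hexamer was found in 5 of the 9 windows, of 4 members, and in 14.0% of 32851 windows of the same length over all genes. The full direct repeat AGGTCANAGGTCA was in 0 of the 9 windows and in 0.0335% of all windows, a share so low that nothing is read from the 0. The 5 bases ACGTG, the core of hypoxia response elements, were in 1 window (Ppard, which held no hexamer) and in 16.6% of all windows. The windows of Plin2, Cpt1a and Pdk4, with non-overlapping higher values, are shown with those of Cd36 and of Pparg's first listed start, with overlapping values. Capitals mark the hexamer, which reads TGACCT where it lies on the other strand, and the Pdk4 window has none.
Plin2, chr4:86670060-86670309, minus strand: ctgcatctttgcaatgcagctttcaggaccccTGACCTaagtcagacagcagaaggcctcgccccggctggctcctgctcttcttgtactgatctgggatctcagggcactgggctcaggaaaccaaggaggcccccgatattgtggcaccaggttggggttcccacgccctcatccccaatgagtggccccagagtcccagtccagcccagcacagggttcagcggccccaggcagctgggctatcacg
Cpt1a, chr19:3323051-3323300, plus strand: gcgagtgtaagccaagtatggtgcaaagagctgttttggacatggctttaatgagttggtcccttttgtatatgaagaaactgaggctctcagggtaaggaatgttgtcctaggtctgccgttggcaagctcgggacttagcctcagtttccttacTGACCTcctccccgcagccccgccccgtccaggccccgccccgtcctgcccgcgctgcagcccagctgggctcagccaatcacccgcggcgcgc
Pdk4, chr6:5496279-5496528, minus strand: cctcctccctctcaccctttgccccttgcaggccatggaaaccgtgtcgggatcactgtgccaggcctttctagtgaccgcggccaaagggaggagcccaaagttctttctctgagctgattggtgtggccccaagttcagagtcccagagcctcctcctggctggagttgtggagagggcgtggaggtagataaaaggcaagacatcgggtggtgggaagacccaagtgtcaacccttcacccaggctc
Cd36, chr5:17835897-17836146, minus strand: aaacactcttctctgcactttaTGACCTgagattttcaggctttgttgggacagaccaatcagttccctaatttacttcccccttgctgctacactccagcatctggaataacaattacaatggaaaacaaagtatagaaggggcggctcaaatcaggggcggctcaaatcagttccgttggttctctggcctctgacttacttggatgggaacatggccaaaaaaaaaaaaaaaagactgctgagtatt
Pparg, chr6:115360894-115361143, plus strand: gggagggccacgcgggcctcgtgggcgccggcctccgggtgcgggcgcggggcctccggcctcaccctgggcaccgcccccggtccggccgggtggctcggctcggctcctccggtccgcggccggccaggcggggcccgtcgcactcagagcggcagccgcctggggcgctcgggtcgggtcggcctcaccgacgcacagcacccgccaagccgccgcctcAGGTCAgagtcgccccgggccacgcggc

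Counted from the start, the hexamer lay at -218 to -213 in Plin2, at -94 to -89 in Cpt1a, at -228 to -223 in Cd36, and at -28 to -23 and -9 to -4 before the first and the second listed start of Pparg. The windows of Ppara, Ppard, Pdk4 and the third Pparg start held none. A match describes the letters of these windows and is not evidence of binding.

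The relatives of the members were examined next, from a list chosen by role and not by how genes moved, though with earlier results of these data known. Vnn3, a further vanin gene that lies next to Vnn1 on chromosome 10 with 0 protein-coding genes between them, had values of 8.99, 8.29, 8.62 and 8.35 with Ad-Zip8 and 4.61, 4.59, 5.10 and 4.51 with Ad-null. The groups stood far apart, and the difference was 3.86 (SE 0.17, limma adjusted p = 2.10e-06), or 14.6-fold. Vnn3 passed in all 14 alternative fits. Its Ad-null values lay at or below the array medians, which leaves the size of its change uncertain, and whether probes of one vanin gene bind the transcript of the other was not tested.

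Fabp5, the epidermal fatty acid carrier gene, lies on chromosome 3 with 2 protein-coding genes between it and Fabp4. It had values of 8.51, 8.26, 8.15 and 8.33 with Ad-Zip8 and 7.04, 6.76, 7.06 and 6.89 with Ad-null. The rise was 2.59-fold (difference 1.37, SE 0.10, adjusted p = 3.14e-05). With the mean of its probe sets the Fabp5 difference was 1.69. Fabp3, the heart-type carrier, averaged 9.63 ± 0.04 with Ad-Zip8 and 9.54 ± 0.10 with Ad-null (SD, n = 4 each), and its difference of 0.09 did not pass (adjusted p = 0.538).

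Angptl1, a secreted relative of Angptl4, fell 2.28-fold. Its values were 4.80, 5.09, 4.93 and 5.16 with Ad-Zip8 and 6.40, 5.98, 6.08 and 6.27 with Ad-null, without overlap (difference -1.19, SE 0.11, adjusted p = 1.50e-04). Scarb1, a lipoprotein receptor of the same family as Cd36, rose 1.57-fold and averaged 9.75 ± 0.10 with Ad-Zip8 and 9.11 ± 0.04 with Ad-null (SD, n = 4 each; difference 0.65, SE 0.07, adjusted p = 3.81e-04). Of the other kinases of pyruvate dehydrogenase, Pdk2 fell by 0.35 (SE 0.09, adjusted p = 0.0289) and Pdk1 had a difference of 0.28 (adjusted p = 0.238). The Pdk2 call passed in the fits that left out Ad-Zip8 replicate 4 or Ad-null replicate 4, and in the other 6 such fits the adjusted p was 0.0506 to 0.0732. Centring the arrays on their medians also ended the Pdk2 call (0.0540). Of the 10 measured genes of the list of relatives, which leaves Fabp5 and Fabp3 to the uptake list, 2 rose (Vnn3 and Scarb1), 2 fell (Angptl1 and Pdk2) and 6 did not pass. The called share of this list was 40%, beside 10.6% of all genes.

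**Figure D3:**
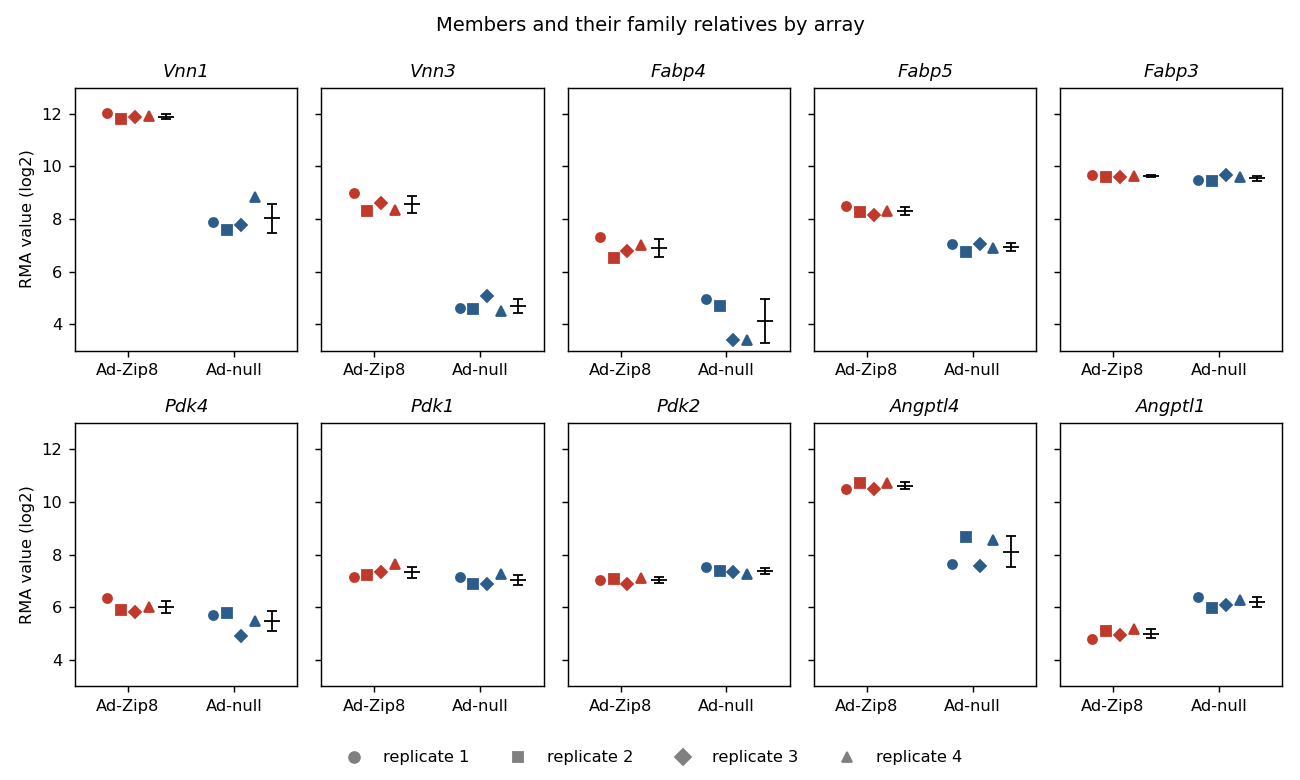
RMA values (log2) on each array of Vnn1, Fabp4, Pdk4 and Angptl4 beside their relatives, Ad-Zip8 left of Ad-null, with the group mean and SD as a black bar. Vnn1 and Vnn3 are both higher with Ad-Zip8, as are Fabp4 and Fabp5, whereas Angptl1 and Pdk2 are lower and Fabp3 and Pdk1 overlap between the groups.

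The wider fatty acid pathway was read from the same fit. Of 131 listed genes 113 were measured: 13 rose, 7 fell and 93 did not pass. Thus 17.7% were called beside 10.6% of all genes, with a median difference of 0.01 beside -0.02. With the dim genes left out, 13 of 89 list genes rose and 11 fell, beside 1297 and 1625 of 11090 genes. The called shares of the list and of all genes were then close to each other. The number that rose was 7 without Ad-Zip8 replicate 1, Ad-Zip8 replicate 4 or Ad-null replicate 3, and 8 without Ad-null replicate 2. The number that fell was 4 without Ad-Zip8 replicate 2, Ad-null replicate 1 or Ad-null replicate 2, and 11 with the variance trend or without the dim genes. Of the 20 called genes, 10 passed in every alternative fit that tested them: Vnn3, Fabp5, Dgat2, Scarb1, Angptl1, Acadl, Elovl3, Fads2, Fads1 and Abhd5.

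Of the 15 measured PPAR partners and coregulators, 1 rose and 0 fell, a called share of 6.67% beside 10.6% of all genes. The gene that rose was Nrip1, which encodes a corepressor of nuclear receptors (difference 0.31, SE 0.08, adjusted p = 0.0383; 0.0740 with the replicate block). It passed in 1 of the 8 fits that left out an array, the one without Ad-null replicate 4 (0.0523 to 0.102 in the others). Rxra, the main DNA-binding partner of the PPARs, averaged 7.85 ± 0.14 with Ad-Zip8 and 8.12 ± 0.12 with Ad-null (SD, n = 4 each; difference -0.27, adjusted p = 0.109). Rxra passed as lower in 2 alternative fits, at 0.0476 with the variance trend and at 0.0407 without the dim genes. Ppargc1a, a coactivator gene of mitochondrial programmes, averaged 4.74 ± 0.24 with Ad-Zip8 and 4.36 ± 0.24 with Ad-null (SD, n = 4 each). The difference of 0.37 did not pass (limma adjusted p = 0.157), though the groups were separated by 0.0075. Both Ppargc1a means lay below the array medians, where background compresses differences.

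Among 19 genes of fatty acid uptake, binding and activation, 3 rose and 1 fell, a called share of 21.1% beside 10.6% of all genes. Beside Fabp5, the endothelial lipase gene Lipg rose by 0.45 (SE 0.11, adjusted p = 0.0292) and Acsl4, whose enzyme activates polyunsaturated fatty acids, by 0.32 (SE 0.08, adjusted p = 0.0343). Vldlr, the gene of the very low density lipoprotein receptor, fell by 0.34 (SE 0.08, adjusted p = 0.0222; 0.0510 with the replicate block). These 3 calls did not hold in most of the 8 fits that left out an array, which have fewer samples. Lipg passed without Ad-Zip8 replicate 3 or Ad-null replicate 4 and had an adjusted p of 0.0501 to 0.0806 in the other 6 fits that left out an array. Acsl4 passed without Ad-Zip8 replicate 2, with 0.0596 to 0.0956 in the other 7, and Vldlr without Ad-Zip8 replicate 3, Ad-null replicate 3 or Ad-null replicate 4, with 0.0544 to 0.0637 in the other 5.

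Of 21 mitochondrial beta-oxidation genes 3 rose and 0 fell, a called share of 14.3% beside 10.6% of all genes. By limma at an unadjusted p under 0.05, 3 were higher and 2 lower. Acadl, the long-chain acyl-CoA dehydrogenase gene, had values of 8.26, 8.20, 8.15 and 8.09 with Ad-Zip8 and 7.66, 7.80, 7.54 and 7.48 with Ad-null, and rose 1.47-fold (difference 0.56, SE 0.09, adjusted p = 0.00257). Acadm, which acts on medium chains, rose by 0.31 (SE 0.08, adjusted p = 0.0274), and Echs1, of the next step of the cycle, also by 0.31 (SE 0.08, adjusted p = 0.0316). Acadm passed without Ad-Zip8 replicate 2 or without Ad-null replicate 1 or 2 (0.0530 to 0.0816 in the other 5 fits), and Echs1 without Ad-null replicate 4 (0.0504 to 0.0880 in the other 7). Cpt2, the partner of Cpt1a on the inner mitochondrial membrane, had a difference of 0.13 (adjusted p = 0.240). Of 12 peroxisomal and microsomal genes Pex11a, which promotes peroxisome division, rose by 0.43 (SE 0.11, adjusted p = 0.0400) and 11 did not pass. The called share of this list was 8.33%, beside 10.6% of all genes. Pex11a passed without Ad-null replicate 1 and not in the other 7 such fits (0.0587 to 0.109).

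Fatty acid synthesis and desaturation had 3 lower and 1 higher of 16 genes, a called share of 25% beside 10.6% of all genes. The desaturase genes Fads2 and Fads1, direct neighbours on chromosome 19, both fell 1.30-fold. Fads2 had values of 10.94, 10.99, 11.15 and 11.12 with Ad-Zip8 and 11.46, 11.38, 11.49 and 11.40 with Ad-null (difference -0.38, SE 0.07, adjusted p = 0.00868). Fads1 had 10.77, 10.93, 10.95 and 11.01 with Ad-Zip8 and 11.27, 11.33, 11.20 and 11.35 with Ad-null (-0.38, SE 0.08, adjusted p = 0.0113). The groups did not overlap in either gene. The elongase gene Elovl6 fell by 0.32 (SE 0.08, adjusted p = 0.0355), but not after median centring of the arrays (0.0589) or a further quantile normalization (0.0839), and among the fits that left out an array it passed without Ad-Zip8 replicate 4 or Ad-null replicate 3 (0.0682 to 0.0933 in the other 6). Elovl3, a further elongase gene, rose 1.47-fold at a low level, with a mean of 5.15 ± 0.16 with Ad-Zip8 and 4.60 ± 0.12 with Ad-null (SD, n = 4 each; adjusted p = 0.00548).

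In the lipid droplet list, 2 of 20 genes rose and 1 fell, a called share of 15% beside 10.6% of all genes. Dgat2, whose enzyme completes triglyceride synthesis, had values of 8.64, 8.46, 8.68 and 8.69 with Ad-Zip8 and 7.87, 7.34, 7.41 and 7.63 with Ad-null. It rose 2.08-fold (difference 1.06, SE 0.12, adjusted p = 3.65e-04) without overlap. Abhd5, which encodes the activator of adipose triglyceride lipase, rose 1.32-fold (0.40, SE 0.08, adjusted p = 0.0119), and G0s2, which encodes an inhibitor of the same lipase, fell 1.51-fold (-0.59, SE 0.13, adjusted p = 0.0189; with the mean of its probe sets -0.34 and 0.0784). Plin1, the adipocyte member of the perilipin family, averaged 5.61 ± 0.13 with Ad-Zip8 and 5.37 ± 0.19 with Ad-null (SD, n = 4 each; adjusted p = 0.232). Hilpda, a lipid droplet gene induced by low oxygen, had a difference of -0.10 (adjusted p = 0.589).

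**Figure D4:**
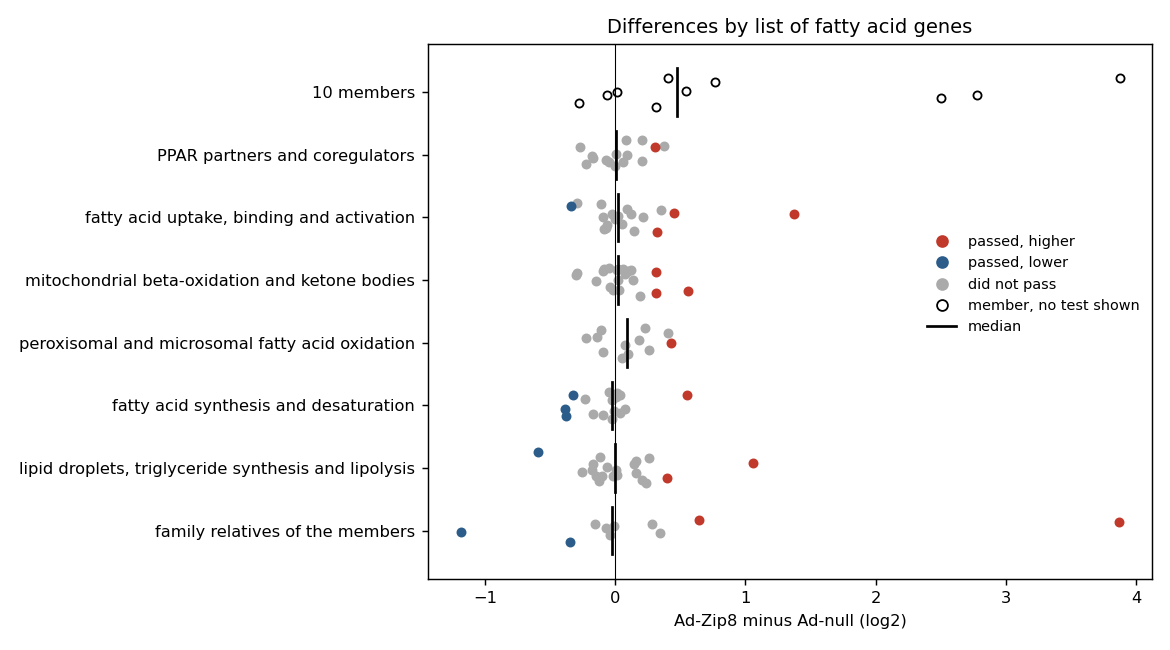
Ad-Zip8 minus Ad-null differences (log2) of the 10 members (open circles, no test shown) and of 113 genes in 7 lists of fatty acid metabolism (filled circles, coloured by the limma call), with the median of each list as a vertical bar. The medians of the 7 lists lie between -0.02 and 0.09, and Vnn3, Fabp5 and Dgat2 are the genes of these lists that rose by more than 1.

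Several members are also expressed by adipocytes, macrophages or endothelium, so markers of these cells were set beside the chondrocyte markers. All 13 chondrocyte markers had means of 10.5 to 13.4, and the other lists had means of 3.30 to 7.02. The share called over all genes was 10.6%, beside 84.6% of chondrocyte, 12.5% of adipocyte, 8.33% of macrophage and 0% of endothelial markers. Of the 13 chondrocyte markers 11 fell and 2 did not pass, the lowest adjusted p values being those of Matn1 (difference -1.14), Col9a3 (-0.63) and Matn3 (-0.96). Their summed level on the linear scale was 45739 to 54338 with Ad-Zip8 and 70215 to 72386 with Ad-null.

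Of 8 measured adipocyte markers 1 rose and 7 did not pass, with a summed level of 270.0 to 311.6 with Ad-Zip8 and 255.5 to 283.6 with Ad-null. The one that rose was Adipoq, the adiponectin gene, which lay below the array medians in both groups (4.18 ± 0.13 with Ad-Zip8 and 3.83 ± 0.13 with Ad-null, SD, n = 4 each; adjusted p = 0.0443). It passed without Ad-Zip8 replicate 4 or Ad-null replicate 2 and not in the other 6 such fits (0.0601 to 0.119) or with the variance trend (0.0796). Of 12 macrophage markers Cd68 rose 1.78-fold (adjusted p = 0.00258) and 11 did not pass. Their summed level was 435.6 to 491.0 with Ad-Zip8 and 381.3 to 395.3 with Ad-null, and 273.6 to 292.5 with Ad-Zip8 and 276.7 to 315.4 with Ad-null without Cd68, a sum made after its value was seen. Of 10 endothelial markers 0 passed the limma test, 0 had an unadjusted p under 0.05 and 0 had separate groups, with summed levels of 299.4 to 333.4 with Ad-Zip8 and 280.5 to 320.3 with Ad-null. RMA values are never 0, and the lowest-lying marker of these 3 lists averaged 3.30. The part of such cells in the members' values was not tested.

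By the distance between profiles over the 8 arrays, each centred on its own mean, the genes nearest to Vnn1 were Saa3 (distance 0.66), Cxcl1 (0.68) and Cfb (0.74), with differences of 4.26, 3.81 and 3.71 beside 3.87 for Vnn1. They encode an acute-phase protein, a neutrophil chemokine and complement factor B. The genes nearest to Pparg, the member with the most negative difference, were Dync2li1 (0.14), Rpl11 (0.16) and Crispld1 (0.17), with differences of -0.27, -0.24 and -0.26. A gene with a like difference between the groups and a small spread is close by this measure.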

How the data were processed

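The authors deposited 1 log2 value per probe set and array, and the submitters' processing notes name RMA as the method. RMA corrects background, brings arrays to a common distribution and summarises probes. Version, annotation, build and any filter were not stated, and detection calls were not used here. Only 8 arrays limit the precision.

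Of 41345 probe sets, 23521 carried a single gene symbol. The brightest probe set over the 8 arrays stood for each of 22180 genes. Ad-Zip8 minus Ad-null was tested two-sided with limma 3.58.1 (R 4.3.3; eBayes after lmFit, with neither covariates nor a filter), with Benjamini-Hochberg adjustment over all genes and a threshold of 0.05. SE is the moderated standard error. The fit was checked on simulated data in which 200 of 22180 genes were changed. It recovered 50% of changes of 0.5 on the log2 scale and 93% of changes of 1, with 4 false calls. More genes than that were called in the real data, so these rates need not hold for them. A gene that did not pass may therefore still differ by a small amount.

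The members, gene lists and tests were chosen with earlier results of these data known. Named were all members, up to 3 called genes in each direction and list, preset genes (Rxra, Ppargc1a, Fabp5, Fabp3, Cpt2, Pdk1, Vnn3, Hilpda, Plin1, Adipoq, Slc39a8), up to 3 called markers per list and the 3 protein-coding genes nearest to 2 members. Some genes of interest were not analysed here. The 14 alternatives were a replicate block, median centring, repeated quantile normalization, a variance trend, no dim genes (mean below the median of all gene means), the mean of a gene's probe sets, and each array left out.

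The groups share replicate numbers without a statement of what they mark. Deviations from group means correlated at 0.108 to 0.374 between arrays of equal number and at -0.271 to 0.155 between others. As each equal-number value was above 0.1, the numbers were taken to pair the arrays, an inference from the data. This inference is weak, because the lowest equal-number value, 0.108, lay below the highest value between other arrays, 0.155. The main fit left the pairing out. The pairing enters only in the replicate block and in the differences between arrays of equal number.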

Additional observations from a re-analysis of the deposited data

Results flagged for a closer look

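Of the 98 groups of 4 arrays examined for the 49 named genes, 3 held an array far from the other 3 by Dixon's criterion, and chance flags about 1 in 20 groups. None of them belonged to the 10 members. Pex11a had a value of 5.98 in Ad-null replicate 1, against 5.53 to 5.60 in the other Ad-null arrays. Fabp3 had 9.69 in Ad-Zip8 replicate 1, against 9.61 to 9.62 in the other Ad-Zip8 arrays. Cpt2 had 8.28 in Ad-Zip8 replicate 2, against 8.19 to 8.20 in the other Ad-Zip8 arrays.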

How the results depend on the processing

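The members' count of higher calls was 5, 7 with the replicate block (Pdk4 and Cpt1a added), 6 with the variance trend, 6 of the 7 tested with dim genes left out (which removed Ppara, Cd36 and Fabp4), 5 under the other 3 settings, and 3 to 5 with an array left out, and 0 were called lower throughout. The wider list had 13 higher genes, 12 with the replicate block and 7 to 10 with an array left out, and 7 lower genes, 7 with the replicate block, 11 with the variance trend, 11 with dim genes left out and 4 to 6 with an array left out. Over all genes 1216 rose and 1136 fell, against 1278 and 1059 with the replicate block. With an array left out, 924 to 1119 rose and 708 to 923 fell. With the variance trend 1414 rose and 1621 fell. With dim genes left out 1297 rose and 1625 fell, of 11090 genes tested. The fits with the variance trend and without dim genes thus called more genes over all genes too, in either direction. Among the named genes that are no members, the block ended the calls of Nrip1 and Vldlr, brought Dync2li1 (adjusted p = 0.0453) and Crispld1 (0.0448) past the threshold and changed no other call. Fits with an array left out have fewer samples and the fit without dim genes tests fewer genes, and for the other changes the cause was not tested. Values near or below the array medians (Cd36, Adipoq, Ppargc1a, Elovl3, Fabp4 and Vnn3 with Ad-null, Angptl1 with Ad-Zip8, and Pdk4 in Ad-null replicate 3) limit what can be measured. Ppara lay somewhat higher and was still left out as dim.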
